A study of Rattus norvegicus with 9 samples.

Results

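The nuclear genes of respiratory complexes II to V, with cytochrome c, were followed in heart tissue of rats by RNA sequencing. Rows of the deposited table were taken by gene symbol: succinate dehydrogenase (Sdha to Sdhd), complex III (symbols starting with Uqcr, and Cyc1), cytochrome c (Cycs), complex IV (symbols starting with Cox4 to Cox8) and ATP synthase (symbols starting with Atp5). This rule took 49 of 22601 genes, of which 4 belong to complex II, 9 to complex III, 1 is cytochrome c, 18 are of complex IV and 17 of complex V. Of the complex V names, Atp5s and Atp5sl (Dmac2l and Dmac2 in RefSeq) are not ATP synthase subunits and are kept because the symbols match.

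The study had 3 groups of 3 libraries, all from heart of rats aged 48 weeks. WKY (Wistar Kyoto) rats have normal blood pressure and received 1 ml of distilled water by mouth for 34 weeks. SHR (spontaneously hypertensive rats) received the same water, and the third group (treated SHR) received allisartan in 1 ml of water for the same 34 weeks. Allisartan blocks the type 1 receptor of angiotensin II, a hormone that raises blood pressure. The sources used here give neither the dose, the sex nor the part of the heart. They also leave out whether libraries and animals correspond one to one, and the p-values then rest only on differences between libraries, which may be technical. Between WKY and SHR, strain and high blood pressure cannot be told apart. In tissue RNA, fewer cells of a type and less RNA per cell cannot be told apart either.

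The inner mitochondrial membrane carries the respiratory chain. Complex II passes electrons from succinate of the citric acid cycle to ubiquinone, complex III passes them on to cytochrome c, and complex IV hands them to oxygen. Complexes III and IV pump protons across the membrane as they work, and complex V (ATP synthase) lets protons flow back to make ATP. Heart muscle lives almost wholly on this ATP and has muscle isoforms of several complex IV subunits. Complexes III, IV and V also contain subunits encoded in mitochondrial DNA, which were not analysed here.

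RefSeq promoter windows of build GRCr8, from 250 bases before to 50 bases after the gene's start, were found for 40 of the 49 genes. The 5 printed here belong to genes on which the results turn: Sdha (lower in SHR and higher with treatment), Atp5g3 (lower in SHR and lower again with treatment), Cox5b and Cox6a2 (higher with treatment) and Cox5a (lower with treatment). Capitals mark matches, on either strand, to a motif of the regulators of mitochondrial genes: estrogen-related receptor (ERR, TCAAGGTCA), GABPA (CCGGAAGT), NRF1 and YY1. The windows lie at chr1:30764303-30764602 (Sdha, plus strand), chr3:79220615-79220914 (Atp5g3, minus strand), chr9:46417587-46417886 (Cox5b, plus strand), chr8:66818034-66818333 (Cox5a, plus strand) and chr1:192219667-192219966 (Cox6a2, minus strand), and each is written 5′ to 3′ on the strand of its gene.
Sdha: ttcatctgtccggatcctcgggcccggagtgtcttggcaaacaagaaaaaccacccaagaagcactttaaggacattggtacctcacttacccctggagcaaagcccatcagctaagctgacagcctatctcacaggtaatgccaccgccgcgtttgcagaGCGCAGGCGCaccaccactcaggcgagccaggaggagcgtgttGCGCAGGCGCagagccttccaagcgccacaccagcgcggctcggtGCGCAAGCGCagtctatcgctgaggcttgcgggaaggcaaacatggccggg
Atp5g3: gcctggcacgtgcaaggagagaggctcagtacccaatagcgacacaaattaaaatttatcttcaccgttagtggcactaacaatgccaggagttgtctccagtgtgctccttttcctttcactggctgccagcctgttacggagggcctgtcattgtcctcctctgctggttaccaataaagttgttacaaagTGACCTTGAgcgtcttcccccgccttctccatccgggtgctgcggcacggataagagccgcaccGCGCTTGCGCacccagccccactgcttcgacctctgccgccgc
Cox5b: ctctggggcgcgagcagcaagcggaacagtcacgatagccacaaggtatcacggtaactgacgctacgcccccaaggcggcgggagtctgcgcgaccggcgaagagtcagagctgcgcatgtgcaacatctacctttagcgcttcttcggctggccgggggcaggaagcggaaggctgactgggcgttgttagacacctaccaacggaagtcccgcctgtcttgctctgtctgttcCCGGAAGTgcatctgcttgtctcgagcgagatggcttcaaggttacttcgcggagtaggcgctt
Cox5a: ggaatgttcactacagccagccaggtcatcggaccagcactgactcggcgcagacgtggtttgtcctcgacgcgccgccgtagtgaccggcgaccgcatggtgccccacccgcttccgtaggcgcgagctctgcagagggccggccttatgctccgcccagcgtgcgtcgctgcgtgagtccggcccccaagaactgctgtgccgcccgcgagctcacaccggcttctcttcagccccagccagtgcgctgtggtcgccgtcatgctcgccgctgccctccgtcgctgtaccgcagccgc
Cox6a2: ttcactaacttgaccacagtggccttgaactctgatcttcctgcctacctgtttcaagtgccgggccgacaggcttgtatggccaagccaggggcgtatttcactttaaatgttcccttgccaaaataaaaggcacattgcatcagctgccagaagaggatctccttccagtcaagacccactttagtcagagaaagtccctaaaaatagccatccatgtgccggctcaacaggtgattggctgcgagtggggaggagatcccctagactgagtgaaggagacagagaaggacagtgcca
The Sdha window holds NRF1 matches in capitals, the Atp5g3 window an ERR match followed by an NRF1 match, and the Cox5b window a GABPA match. The windows of Cox5a and Cox6a2 hold no match to these letters. Matches of different motifs do not overlap here.

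Over all 40 promoters of the respiratory genes, the NRF1 motif was found in 7 (17.5%), against 4.71% of 27457 rat promoters of the same length. The genes with a match were Atp5c1, Atp5g2, Atp5g3, Atp5i, Atp5o, Sdha and Uqcrc1. The GABPA motif was found in 5 (12.5%, against 4.01%), those of Atp5a1, Cox5b, Cox8a, Uqcrh and Uqcrq. The ERR motif was found in 2 (5%, against 0.412%), Atp5g3 and Sdhd, and the YY1 motif in 2 (5%, against 1.16%), Atp5j and Uqcrc1. A match is a match of letters and does not show binding. Median GC content was 56% in the 40 windows and 52.3% in all windows.

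The values are FPKM (fragments per length of transcript and per mapped fragment of the library), divided here by 1 scaling factor per library. FPKM allows levels of different genes to be compared, as far as the transcript lengths assumed are right. The 49 genes together held 9.85% to 10.7% of all FPKM in the WKY libraries. Their share was 8.91% to 9.55% in the SHR libraries, below every WKY library, and 10.3% to 11.3% in the treated ones. Complex V accounted for 44.1% of this total in WKY, complex IV for 36.9%, complex III for 10.9% and complex II for 6.19%. Heart muscle was plainly present, with 10 ventricular markers whose summed FPKM ranged from 30568 to 30837 in SHR, from 33184 to 35255 in WKY and from 38836 to 40022 with treatment, while 7 markers of skeletal muscle summed to at most 1.70 FPKM.

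The libraries did not all scale reads in the same way. In an FPKM table the smallest values of a gene are multiples of what 1 read is worth, and for libraries processed alike the ratio of these small values between 2 libraries is about the same for every gene. Among genes under 0.1 FPKM in both libraries, the share within 0.03 (log2) of the commonest ratio was 42.9% to 64.4% over the 6 pairs made of the WKY libraries and SHR replicate 1, and 63.0% between SHR replicates 2 and 3. It was 58.9% between treated replicates 2 and 3, and 35.5% and 27.8% between treated replicate 1 and these. Across these sets it was 16.2% to 29.6% over the 8 pairs of WKY or SHR replicate 1 with SHR replicate 2 or 3, and 11.8% to 21.8% over the pairs of a treated with an untreated library. The worth of 1 read thus depended on the gene differently in WKY with SHR replicate 1, in SHR replicates 2 and 3 and in the treated libraries, among which replicate 1 also differed in part from the others. No untreated library shared the scale of a treated one, so scale and treatment cannot be told apart. Among the 44 respiratory genes whose mean was at least 10 FPKM, the log2 difference of SHR replicate 1 from SHR replicates 2 and 3 had a median of 0.05 and ranged from -0.19 to 0.69, with 1 gene beyond 0.5 in size. How far the scale of the treated libraries moves their values was not tested. For most comparisons, complexes and lists, counts of calls or median changes are therefore given with and without SHR replicates 2 and 3. The rest are given with all libraries only, and whether they hold without these replicates is not shown. Omitting SHR replicates 2 and 3 leaves 1 SHR library, assumed to vary like the others.

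Of the 49 genes, 47 passed the filter on low values and were tested with limma among 11717 genes. Cox7b2 and Cox8c, testis isoforms of complex IV subunits, were listed at 0 in all 9 libraries. Near copies of these genes have 8 rows of their own under other symbols, so reads may have been split between them. The values of these rows are as deposited, without the scaling factor. Those with the highest values are LOC100363502 (like Cycs, 48.0 to 102 FPKM), LOC100911417 (like Atp5f1, 16.9 to 39.3) and LOC688869 (like Cox6b1, 472 to 734). RGD2320734 (like complex III subunit 9, Uqcr10), LOC689271 (like Atp5j2) and LOC687508 (like Cox7a1, at most 0.901 FPKM) stayed at or below 2.32 FPKM, and Cyct (testis cytochrome c) and LOC688022 (like the ATP synthase d subunit) were listed at 0. The level of Atp5f1 and Cox7a1 is uncertain, and the reason for their low values was not tested. The near copies of both were low too. Of the 49 genes, 48 were matched to RefSeq, and Cox7a1 was not. Cox6b1 has no row under its own symbol among the 49.

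In SHR hearts, all 4 complex II subunits and cytochrome c were lower than in WKY, with 9 genes of complexes III, IV and V, while 32 genes did not pass the test. Of 47 tested genes, 14 fell and 1 rose, against 9.93% of all tested genes called lower and 11.9% called higher. The median log2 change was -0.20, where that of all tested genes was 0.01, and 14 of the 47 changes were positive. By complex, 4 of 4 genes fell in complex II, 2 of 9 in complex III, 2 of 16 in complex IV (with 1 rise) and 5 of 17 in complex V. The summed FPKM of all 49 genes was 38420 ± 3281 (SD, n = 3) in WKY and 33430 ± 1183 in SHR.

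These SHR calls were near the threshold. 5 of the 14 falls (Sdha, Sdhc, Sdhd, Cycs and Atp5g3) were called whichever single library was left out. The number of falls was 6 without WKY replicate 1, 7 without WKY replicate 2 and 5 without SHR replicate 3, and the rise of Cox6a1 was not called without WKY replicate 2 or 3 or without SHR replicate 1 or 3. Without both SHR replicates 2 and 3, 0 genes fell and 0 rose in any of the complexes, and the median log2 change was -0.15. In that fit the calls over all tested genes also dropped, to 1.82% lower and 3.2% higher. With quantile normalization 7 genes fell, and the median was -0.078. Markers of other cells also differed between WKY and SHR. The 9 fibroblast markers summed to 408 to 452 FPKM in WKY and 726 to 777 in SHR (6 of 9 rose). The 9 macrophage markers summed to 158 to 179 and 424 to 497 (9 of 9 rose). Smooth muscle markers summed to 60.3 to 76.2 FPKM in WKY and 89.4 to 120.0 in SHR (3 of 4 rose). Atrial markers summed to 1638 to 2079 and 3342 to 6063 (2 of 5 tested rose and 1 fell). Most of this atrial sum was Nppa, at 1589 to 2022 FPKM in WKY and 3300 to 6023 in SHR, so the sum mainly follows this gene. Whether it reports atrial cells was not tested. Dkk3, the atrial marker that fell, was at 36.6 to 45.3 and 21.9 to 26.8 FPKM. Pericyte markers summed to 166 to 218 and 219 to 258 FPKM (1 of 4 rose). Of the brown adipocyte markers only 1, Cidea, was tested, and it fell (76.0 to 102 and 23.8 to 33.8 FPKM). Ucp1, another of them, did not exceed 0.0731 FPKM in any library. Of the 10 ventricular heart muscle markers, whose sum was lower in SHR, 4 fell and 2 rose. Without SHR replicates 2 and 3, 5 fibroblast, 5 macrophage and 2 smooth muscle markers rose, no atrial or pericyte marker rose, and no ventricular marker passed the test. Of all these markers Elovl3 of brown adipocytes was at 0 in all libraries, and the part of these cells in the lower respiratory levels was not tested.

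In treated SHR hearts, the respiratory genes moved in both directions, most of those called upwards. Of 47 tested genes, 24 rose and 5 fell compared with SHR, against 16.1% of all tested genes called higher and 17.4% called lower. The median log2 change was 0.24 (-0.03 over all tested genes), and single genes ranged from -0.67 to 1.28. Complex II had 3 rises in 4 genes, complex III 5 rises and 3 falls in 9, complex IV 9 rises and 1 fall in 16, and complex V 6 rises and 1 fall in 17. The summed FPKM was 41745 ± 3080 in treated SHR, of which complex IV made up 18278 ± 2009, against 12043 ± 193 in SHR and 14211 ± 1581 in WKY.

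The calls between treated SHR and SHR depended less on single libraries. Of the 29 calls, 22 held whichever library was left out, and the number of rises ranged from 19 to 25 and that of falls from 4 to 6. Without SHR replicates 2 and 3, 10 genes rose (Sdhb, Uqcr11, Uqcrb, Uqcrh, Uqcrq, Cox5b, Cox6a2, Cox6c, Atp5d and Atp5j2) and 4 fell (Uqcr10, Cyc1, Cox5a and Atp5g3), and the median log2 change was 0.21. In that fit 5.86% of all tested genes rose and 5.16% fell. By complex it had 1 rise in complex II, 4 rises and 2 falls in complex III, 3 rises and 1 fall in complex IV, and 2 rises and 1 fall in complex V. The falls became 9 with quantile normalization and 10 with cyclic loess, and the median became 0.15 and 0.084. Other cells' markers moved here too: the fibroblast sum was 411 to 465 FPKM and the macrophage sum 225 to 276 in treated SHR, with 7 of 9 markers lower than in SHR in each list (6 of 9 without SHR replicates 2 and 3). Atrial markers summed to 266 to 526 FPKM in treated SHR (1 of 5 tested fell). Most of this was Nppa, the marker that fell, at 232 to 484 FPKM. Markers of red blood cells summed to 170 to 322 FPKM in SHR and 855 to 2255 in treated SHR (4 of 4 tested markers rose, and 1 without SHR replicates 2 and 3), and no marker of this list was at 0 in all libraries. Of the ventricular heart muscle markers, whose sum was highest in treated SHR, 6 rose and 3 fell (5 and 3 without SHR replicates 2 and 3). The part of these cells in the respiratory changes was not tested. Endothelial markers summed to 145 to 153 and 138 to 153 FPKM.

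**Figure D1:**
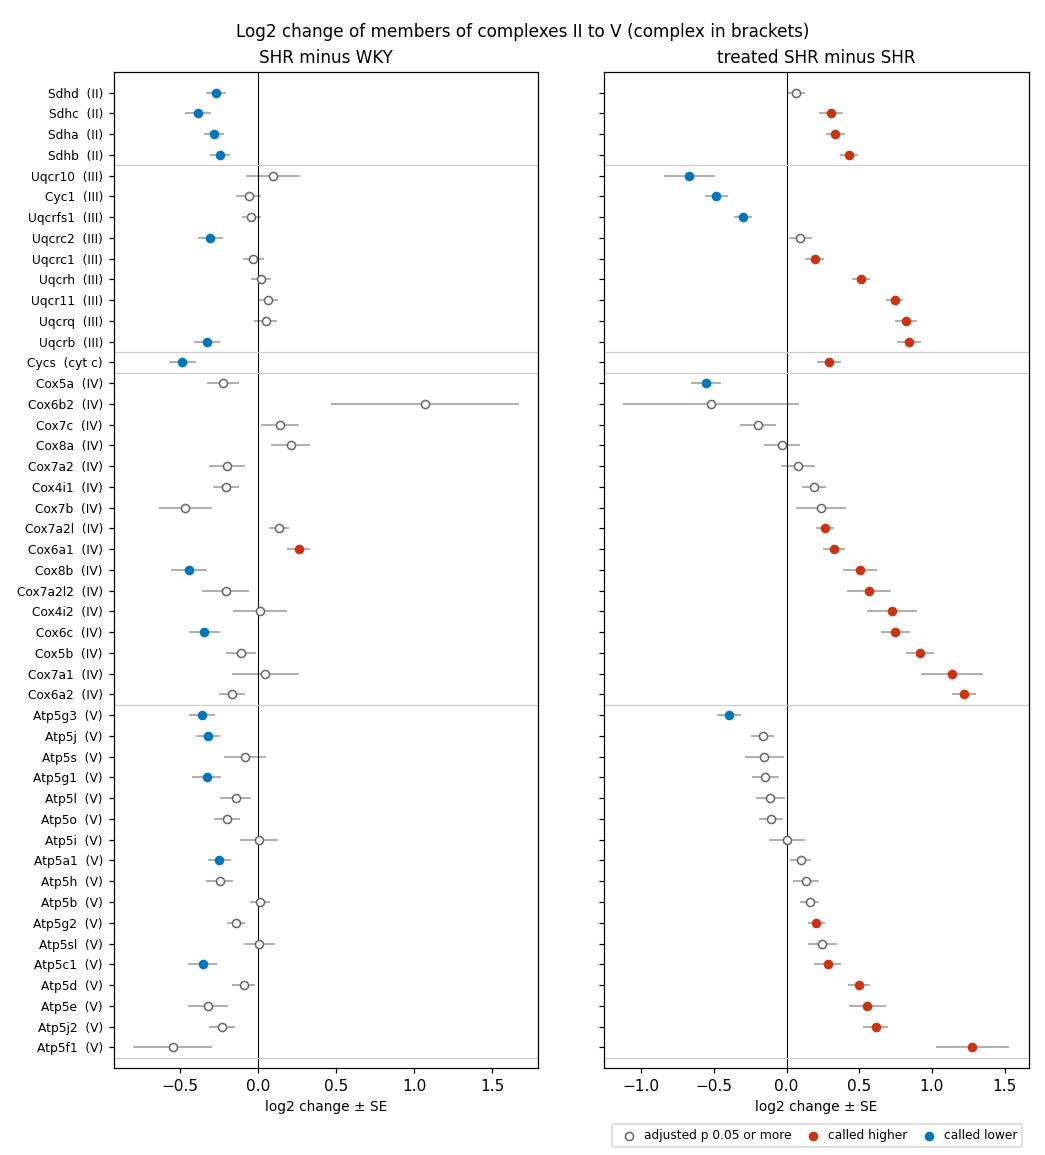
Log2 change ± SE of each tested gene, for SHR minus WKY (left) and treated SHR minus SHR (right), grouped by complex and ordered within it by the change with treatment; filled points passed an adjusted p of 0.05. Red points are rises and blue points falls: 1 and 14 on the left, 24 and 5 on the right. Both panels share the SHR libraries, so a low value in SHR moves the points of a gene in opposite directions.

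All 4 complex II subunits fell in SHR, and 3 of them rose with treatment. Its summed FPKM was 2375 ± 133 in WKY, 1950 ± 78.8 in SHR and 2390 ± 61.6 in treated SHR. Sdha, the flavoprotein that oxidises succinate, was at 601, 571 and 560.2 FPKM in WKY, 479.6, 496 and 451 in SHR and 599.6, 626 and 573 in treated SHR. The SHR values lay below all 6 others, and WKY and treated values overlapped. Its log2 change was -0.28 in SHR against WKY (SE 0.0643, limma adjusted p = 0.0111) and 0.33 with treatment (SE 0.0643, adjusted p = 0.00297). Sdhb, the iron-sulfur subunit, was at 776, 721 and 701 FPKM in WKY, 616, 644 and 597 in SHR and 829, 841 and 828 in treated SHR, 3 ranges with no overlap. It fell in SHR (-0.24, adjusted p = 0.0183) and rose with treatment (0.43, adjusted p = 0.000584). The fall of Sdhb was not called with quantile normalization (adjusted p = 0.371), cyclic loess (0.132) or no rescaling (0.0531), and those of Sdha and Sdhd were not called with quantile normalization (0.0929 and 0.156).

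Sdhc and Sdhd encode the membrane anchors that hold the ubiquinone site. Sdhc was at 461, 418 and 393 FPKM in WKY, 325, 345 and 306 in SHR and 433, 403 and 370.4 in treated SHR. It was lower in all SHR libraries, with a log2 change of -0.38 against WKY (SE 0.0827, adjusted p = 0.00839), and rose with treatment by 0.30 (adjusted p = 0.0168), a call lost without SHR replicate 3 (0.0646) or treated replicate 1 (0.0589). Sdhd was at 681, 639 and 603 FPKM in WKY, 544, 536 and 512 in SHR and 562, 557 and 547 in treated SHR. It fell in SHR (log2 change -0.27, SE 0.0629, adjusted p = 0.0117), and the treated libraries stayed below the lowest WKY library: the change with treatment was 0.07 (adjusted p = 0.453) and against WKY -0.20 (adjusted p = 0.0374). This last call held in 3 of 9 fits that left out a library and was lost with quantile normalization (0.0818), with no filter on low values (0.064) and in a fit of the 6 libraries alone (0.0675). Whether the anchors differ from each other in their response was not tested.

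Cycs, the mobile carrier between complexes III and IV, was at 787, 699 and 683 FPKM in WKY, 555, 505 and 488 in SHR and 696, 599.6 and 600.4 in treated SHR. The SHR libraries were below all others. With treatment it was higher by 0.29 log2 units (SE 0.0852, adjusted p = 0.0237), a call lost with cyclic loess normalization (0.0671), without SHR replicate 2 or 3 (0.072 and 0.0835) and without treated replicate 1 (0.0793). Before rescaling, its near copy LOC100363502 was at 102, 81.9 and 75.0 FPKM in WKY and 62.0, 48.0 and 52.4 in SHR. In treated SHR this copy was at 75.2, 76.1 and 76.8, the same order of groups.

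**Figure D2:**
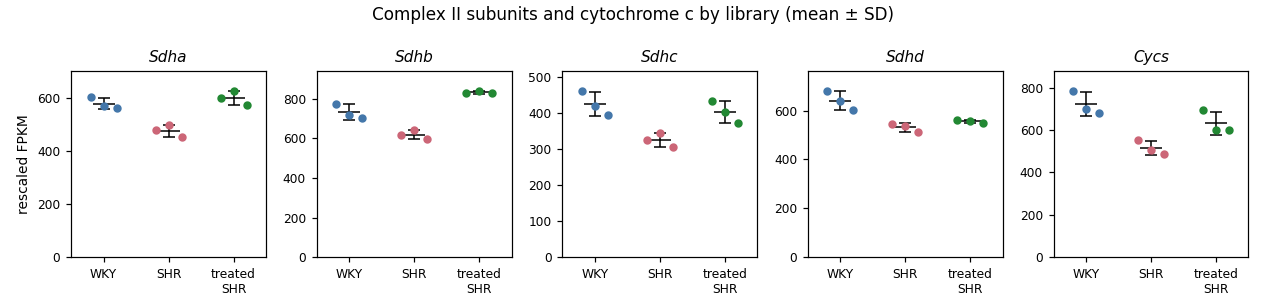
Rescaled FPKM of the 4 complex II subunits and of Cycs in each of the 9 libraries, with the mean ± SD of each group of 3. The SHR libraries are the lowest group in all 5 panels, and Sdhd is the panel in which the treated libraries (547 to 562 FPKM) stay below WKY (603 to 681).

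In complex III, most small subunits rose with treatment, while the 2 electron-carrying subunits followed here fell. Cyc1 (cytochrome c1) and Uqcrfs1 (the Rieske iron-sulfur protein), which hold redox centres, both fell. Of the 5 small subunits, 4 rose and 1 (Uqcr10) fell. Without SHR replicates 2 and 3 the fall of Uqcrfs1 was not called, while those of Cyc1 and Uqcr10 and the 4 rises were. The summed FPKM of the complex was 4177 ± 184 in WKY, 3928 ± 208 in SHR and 4128 ± 158 in treated SHR, and the libraries of the 3 groups overlapped in this sum. Cyc1 was at 639, 581 and 555 FPKM in WKY, 609, 574 and 520.4 in SHR and 436, 397 and 385 in treated SHR. WKY and SHR overlapped (-0.06, adjusted p = 0.653), and all treated libraries lay below both (-0.48 against SHR, SE 0.0820, adjusted p = 0.00147). Uqcrfs1 was at 1062, 1009 and 1005 FPKM in WKY, 1018, 1022 and 947 in SHR and 841, 800.2 and 783 in treated SHR. Its treated libraries were again below all others (log2 change -0.30 against SHR, SE 0.0621, adjusted p = 0.00436).

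Uqcrq, Uqcrb and Uqcr11, small subunits around the core, rose the most in this complex. Uqcrq was at 134, 123 and 122 FPKM in WKY, 131, 140.1 and 122 in SHR and 241, 236 and 216 in treated SHR. WKY and SHR overlapped, and treated libraries were higher by 0.82 log2 units than SHR (SE 0.0747, adjusted p = 5.01e-05). Uqcrb was at 90.0, 96.4 and 93.9 FPKM in WKY, 80.3, 77.8 and 66.1 in SHR and 144, 131 and 127 in treated SHR. The groups did not overlap: it fell in SHR (-0.32, adjusted p = 0.0192) and rose with treatment to above WKY (0.84, adjusted p = 7.78e-05, and 0.52 against WKY, adjusted p = 0.00175). Uqcr11 was at 144, 159.9 and 154 FPKM in WKY, 163, 161 and 155 in SHR and 266, 269.8 and 266 in treated SHR. Its rise with treatment was 0.74 (SE 0.0596, adjusted p = 2.74e-05), and Uqcrh, the hinge protein next to cytochrome c1, rose by 0.51 (adjusted p = 0.000248). Uqcr10 went the other way, at 148, 114 and 128 FPKM in WKY, 189.8, 124 and 112 in SHR and 85.6, 78.4 and 96.2 in treated SHR. SHR replicate 1 stood above the other SHR libraries, and the fall with treatment (-0.67, SE 0.174, adjusted p = 0.0138) was not called without treated replicate 2 (0.0508).

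Of the core subunits, Uqcrc2 fell in SHR and Uqcrc1 rose with treatment, both close to the threshold. Uqcrc2 was at 1068, 994 and 961 FPKM in WKY, 842, 834 and 768 in SHR and 967, 851 and 799.6 in treated SHR. Its level in SHR was lower (-0.31, adjusted p = 0.0218; 0.0621 with quantile normalization), and its treated libraries overlapped both other groups. Uqcrc1 was 549 to 643 FPKM in WKY and SHR and 661 to 674 in treated SHR, a rise of 0.19 (adjusted p = 0.0492) that was called in 1 of 9 fits that left out a library and not with quantile normalization (0.102), cyclic loess (0.385) or no rescaling (0.154).

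**Figure D3:**
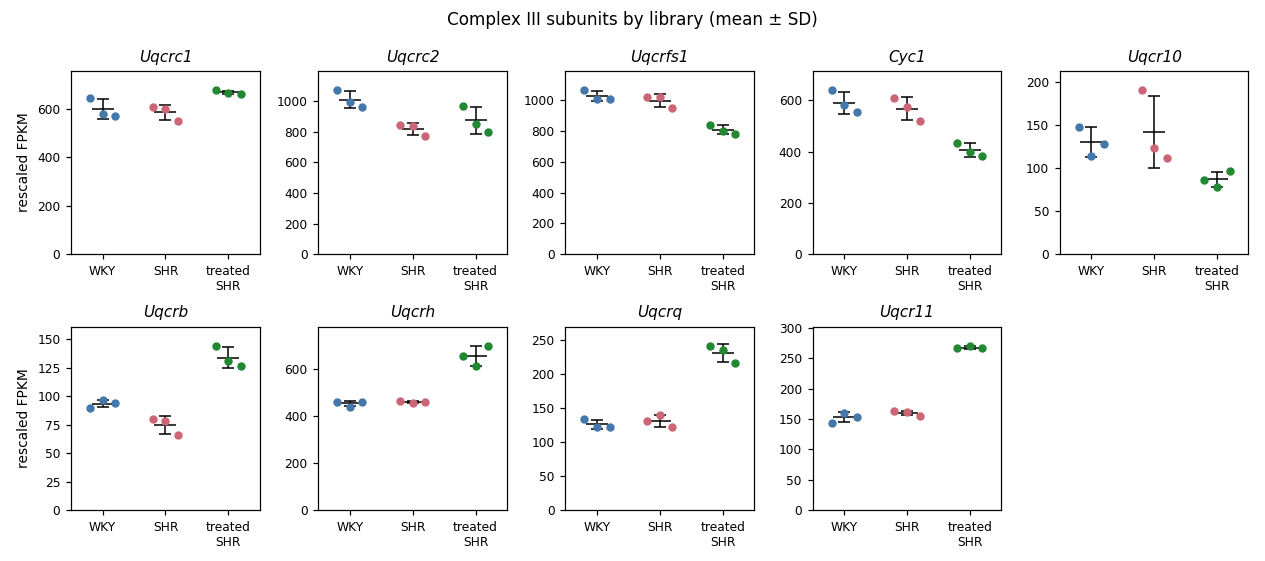
Rescaled FPKM of the 9 complex III genes in each library, with the mean ± SD of each group of 3. Uqcrfs1, Cyc1 and Uqcr10 are lowest in treated SHR, and Uqcrb, Uqcrh, Uqcrq and Uqcr11 are highest there (266 to 270 FPKM for Uqcr11, against 144 to 163 in the other libraries).

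Complex IV had the largest gain with treatment in FPKM, led by its heart and skeletal muscle isoform Cox6a2. Cox6a2 was at 3191, 3023 and 2972 FPKM in WKY, 2779, 2607 and 2788 in SHR and 7124, 6229 and 5746 in treated SHR. WKY and SHR lay close (-0.17, adjusted p = 0.18), and every treated library was above both. The rise was 1.22 log2 units against SHR (SE 0.0842, adjusted p = 1.92e-05) and 1.05 against WKY (adjusted p = 2.96e-05). Cox5b, a subunit on the matrix side, was at 915, 960.0 and 896 FPKM in WKY, 809.7, 824 and 941 in SHR and 1869, 1469 and 1535 in treated SHR. WKY and SHR overlapped, and the treated libraries were higher than both by 0.92 against SHR (SE 0.0957, adjusted p = 0.0001).

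Cox5a, the other matrix-side subunit named Cox5, fell where Cox5b rose. It was at 965, 769.9 and 733 FPKM in WKY, 753, 716 and 635 in SHR and 499, 478 and 453 in treated SHR. All treated libraries were below all others, with a log2 change of -0.55 against SHR (SE 0.104, adjusted p = 0.00273) and -0.78 against WKY (adjusted p = 0.000623), and it was the 1 fall in this complex. Cox6c, a membrane subunit, was at 2167, 1853 and 1673 FPKM in WKY, 1520.0, 1442 and 1499 in SHR and 2768, 2433 and 2309.8 in treated SHR. The groups did not overlap. Compared with WKY it was lower in SHR (-0.34, adjusted p = 0.0311; 0.0801 with quantile normalization and 0.0683 with cyclic loess) and rose with treatment (0.75, SE 0.0993, adjusted p = 0.000375).

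Cox8b, the muscle isoform of subunit 8, was at 1911, 1604 and 1444 FPKM in WKY, 1291, 1301 and 1043 in SHR and 1833, 1689 and 1622 in treated SHR. SHR was below both other groups, which overlapped. Its log2 change was -0.44 in SHR (adjusted p = 0.0193) and 0.51 with treatment (adjusted p = 0.00704), with 0.06 between treated SHR and WKY (adjusted p = 0.74). Cox6a1, the isoform of subunit 6a found in most tissues, was at 184, 174 and 174 FPKM in WKY, 222, 205 and 211 in SHR and 293, 263 and 246 in treated SHR. It was the 1 gene that rose in SHR (0.26, adjusted p = 0.0275), and it rose again with treatment (0.33, adjusted p = 0.00657). Cox8a, the isoform of subunit 8 found in most tissues, was at 191, 161 and 129 FPKM in WKY, 171, 183 and 196 in SHR and 195, 176 and 166 in treated SHR, with all groups overlapping.

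Cox4i1 and Cox7a2 were abundant and passed no test. Cox4i1 was at 1917, 1715 and 1631 FPKM in WKY, 1524, 1564 and 1462 in SHR and 1825, 1791 and 1569.5 in treated SHR, and although SHR lay below the other groups the adjusted p was 0.0986 against WKY and 0.107 with treatment. Cox7a2 was at 842, 665 and 613 FPKM in WKY, 631, 637 and 566 in SHR and 705, 660.3 and 575 in treated SHR, and all groups overlapped. Their rarer isoforms rose with treatment at low levels. Cox4i2, an isoform known for its role at low oxygen, was at 3.22, 3.83 and 4.53 FPKM in WKY, 3.70, 4.85 and 3.20 in SHR and 5.64, 8.20 and 6.55 in treated SHR (log2 change 0.73, adjusted p = 0.00893). Cox7a1, the muscle isoform, was at 0.556, 0.468 and 0.491 FPKM in WKY, 0.578, 0.502 and 0.532 in SHR and 1.23, 2.82 and 1.56 in treated SHR (log2 change 1.14, adjusted p = 0.00274). Cox7a1 is known as the main isoform of adult heart in other mammals, and its row was far below Cox7a2 in every library here.

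Of the other complex IV genes, Cox7a2l, which helps complexes III and IV to join, was 104 to 110.1 FPKM in SHR and 121 to 132 with treatment (0.26, adjusted p = 0.00943; 0.0595 with cyclic loess). Cox7a2l2 was 34.8 to 41.3 FPKM in SHR and 47.6 to 75.7 with treatment (0.57, adjusted p = 0.0152; 0.0504 without SHR replicate 1). Cox7b was 1737 to 2649.9 FPKM in WKY and 1450.1 to 1565 in SHR, groups that did not overlap, with an adjusted p of 0.0753. Cox7c ranged over 644 to 953 FPKM and Cox6b2, a testis isoform, over 0 to 2.89, and neither passed a test.

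**Figure D4:**
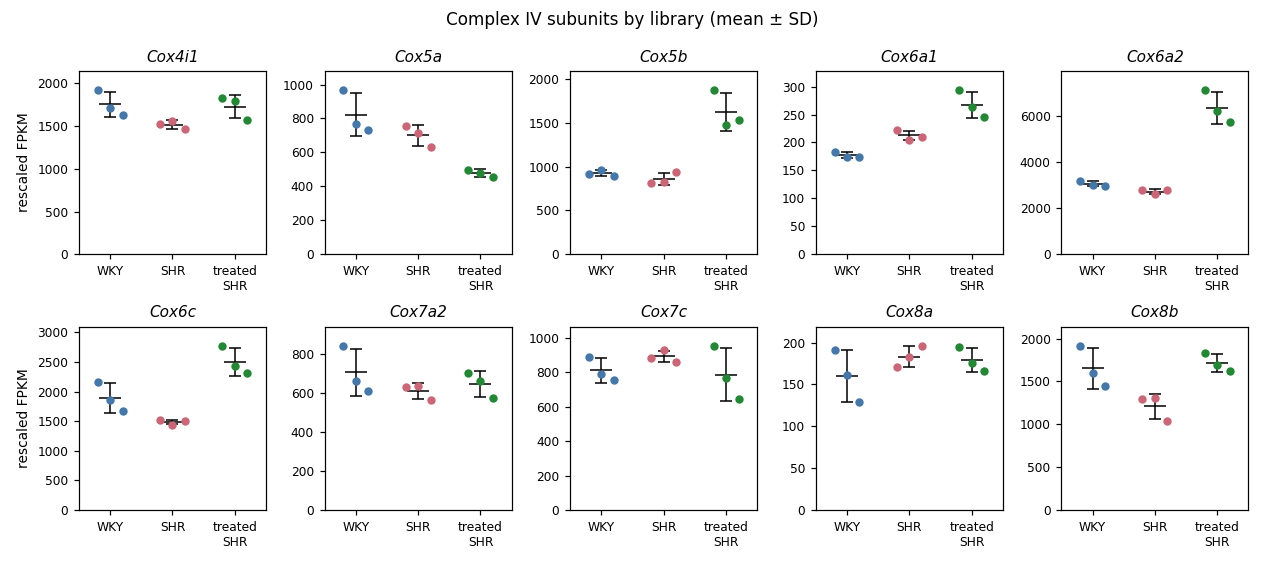
Rescaled FPKM of 10 complex IV genes in each library, with the mean ± SD of each group of 3. The treated libraries stand above the others for Cox5b, Cox6a1, Cox6a2 and Cox6c and below them for Cox5a, and overlap at least one other group for Cox4i1, Cox7a2, Cox7c, Cox8a and Cox8b.

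In complex V, the central stalk subunits Atp5c1, Atp5d and Atp5e rose with treatment, while Atp5g3, the most abundant gene of the membrane ring, fell in SHR and again with treatment. Summed FPKM was 16934 ± 1335 in WKY, 14992 ± 716 in SHR and 16318 ± 843 in treated SHR. Of the 5 subunits of the catalytic head and its central stalk, 2 fell in SHR and 3 rose with treatment (0 and 1 without SHR replicates 2 and 3), and of the 3 genes of the membrane ring (subunit c), 2 fell in SHR, and with treatment 1 rose and 1 fell (0 falls in SHR, and 0 rises and 1 fall with treatment, without those libraries). Atp5a1, the alpha subunit, was at 3055, 2843 and 2671 FPKM in WKY, 2376, 2539 and 2302 in SHR and 2649, 2573 and 2492 in treated SHR. It fell in SHR (log2 change -0.25, adjusted p = 0.0324), which was not called with quantile normalization (0.443), cyclic loess (0.307) or no rescaling (0.072). Atp5b, the beta subunit that holds the catalytic sites, ranged over 3151 to 3449.7 FPKM in the WKY libraries, 3250.0 to 3409 in the SHR libraries and 3643 to 3779.8 in the treated ones. Its treated libraries were above all others, with an adjusted p of 0.0776 against SHR and 0.0716 against WKY.

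Atp5c1, the gamma subunit that turns in the head, was at 628, 542 and 533 FPKM in WKY, 456, 466 and 408 in SHR and 587, 548 and 486 in treated SHR. The fall in SHR was called (-0.36, SE 0.0918, adjusted p = 0.0193; 0.0606 with quantile normalization), and its rise with treatment (0.28, adjusted p = 0.0362) was called in 4 of 9 fits that left out a library and not with cyclic loess (0.0758), quantile normalization (0.0653) or no rescaling (0.0688). Atp5d, the delta subunit of the central stalk, was at 329.6, 311 and 284 FPKM in WKY, 296, 292 and 278 in SHR and 379, 421 and 425 in treated SHR. WKY and SHR overlapped, and treated libraries were above both (0.50 against SHR, SE 0.0737, adjusted p = 0.000671). Atp5e, the epsilon subunit beside it, was 716 to 830.2 FPKM in SHR and 1033 to 1257 in treated SHR, a rise of 0.56 (adjusted p = 0.00723).

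The 3 genes of subunit c encode the same ring protein with different import signals. Atp5g3, the most abundant of them, was at 1203, 1136 and 1081 FPKM in WKY, 932, 964 and 782 in SHR and 674, 676 and 675 in treated SHR. It was the 1 gene of the 47 that fell in all comparisons: -0.36 log2 units in SHR against WKY (SE 0.0824, adjusted p = 0.0113), -0.40 with treatment (adjusted p = 0.00441) and -0.75 in treated SHR against WKY (adjusted p = 0.000185). Atp5g1 was at 434, 373 and 352 FPKM in WKY, 326, 324 and 273 in SHR and 279, 284 and 268 in treated SHR. Its SHR level was below WKY (-0.33, adjusted p = 0.0274), and treated libraries overlapped SHR (-0.15, adjusted p = 0.244). Atp5g2 was at 443, 431 and 417 FPKM in WKY, 402, 398 and 371 in SHR and 451, 452 and 446 in treated SHR, a rise with treatment of 0.20 (adjusted p = 0.0215) that was not called with quantile normalization (0.134), cyclic loess (0.238), no rescaling (0.0844), without SHR replicate 3 (0.0793) or without treated replicate 2 (0.0667).

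Among the stator subunits, which hold the head still, Atp5j (coupling factor 6) was at 1017, 961 and 861 FPKM in WKY, 753, 773 and 741 in SHR and 729, 669 and 628 in treated SHR. The groups did not overlap. It fell in SHR (-0.32, adjusted p = 0.0147), and its log2 change with treatment, -0.16, was not called (adjusted p = 0.132) but was with quantile normalization (0.00825), cyclic loess (0.00125) and no rescaling (0.0377). Atp5f1, stator subunit b, was at 14.9, 21.4 and 18.2 FPKM in WKY, 12.8, 10.6 and 13.1 in SHR and 34.3, 18.4 and 43.2 in treated SHR. This is far below the other stator genes (864 to 1155 for Atp5h, 692 to 983 for Atp5o). The near copy of Atp5f1, LOC100911417, was at 16.9 to 39.3 FPKM before rescaling. The log2 change of Atp5f1 with treatment was 1.28 (SE 0.253, adjusted p = 0.0035). Reads of this subunit may be split between both rows, but both rows are far below Atp5h and Atp5o.

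Of the membrane subunits e, f and g, which help ATP synthase to form pairs, Atp5j2 (subunit f) was at 1254, 1027 and 1055 FPKM in WKY, 980.5, 974 and 884 in SHR and 1500.1, 1436 and 1402 in treated SHR. Treated libraries were above all others (0.61 against SHR, SE 0.0840, adjusted p = 0.000432). Atp5i (subunit e) stayed within 1008 to 1339 FPKM and Atp5l (subunit g) within 1272 to 1834, with no call in any comparison. Atp5s and Atp5sl, which are not subunits, were at 9.74 to 15.2 and 28.8 to 41.9 FPKM and passed no test.

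Treated SHR differed from WKY mainly in complexes III and IV, where 7 of 9 and 8 of 16 genes passed the test. Of 47 genes, 13 were higher and 9 lower in treated SHR, against 12.9% of all tested genes called higher and 11.4% called lower, with a median log2 change of 0.06. Complex II had 0 higher and 1 lower, complex III 4 higher and 3 lower, complex IV 7 higher and 1 lower, and complex V 2 higher and 4 lower. Without SHR replicates 2 and 3, which enter this comparison only through the estimate of the spread, 13 were higher and 8 lower, against 11.8% and 9.99% of all tested genes. Of the 22 calls made with all libraries, 18 held whichever library was left out, and those of Sdhd, Uqcr10, Atp5o and Cox6c did not. Calls over the 3 comparisons, which share libraries, are given for the 47 genes beside all tested genes. A fall in SHR and a rise with treatment without a call against WKY was found for 6 genes (12.8%, against 4.02% of all tested genes): Sdha, Sdhb, Sdhc, Cycs, Cox8b and Atp5c1. Uqcrb and Cox6c (4.26%, against 0.93%) fell in SHR and rose with treatment to above WKY. A rise with treatment above both other groups, with no call in SHR, was found for 10 genes (21.3%, against 6.17%), among them Cox6a2, Cox5b, Uqcrq, Uqcr11, Uqcrh, Atp5d and Atp5j2. A fall below both was found for 4 (8.51%, against 5.04%), Cyc1, Uqcrfs1, Uqcr10 and Cox5a. Without SHR replicates 2 and 3, 1 SHR library is left and few calls in SHR remain among all tested genes. That fit therefore cannot decide whether the patterns hold. In it the log2 change in SHR of the 6 genes of the first pattern ranged from -0.38 to -0.25 (-0.49 to -0.24 with all libraries). For 12 genes (25.5%, against 52.8%) no comparison passed, and for 25 (53.2%, against 73.4%) without those libraries.

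Shares of isoforms within a subunit shifted, most for Atp5g2 and Atp5g3. Treated SHR minus WKY was 10.1 percentage points for Atp5g2 and -10.1 for Atp5g3. Cox6a2 made up 94.5% ± 0.0415 (SD, n = 3) of the Cox6a total in WKY, 92.8% ± 0.189 in SHR and 96.0% ± 0.0761 in treated SHR, and no library of a group overlapped another group. Cox8b made up 91.2% ± 0.534 of the Cox8 total in WKY, 86.7% ± 2.20 in SHR and 90.5% ± 0.150 in treated SHR. Of the summed subunit c genes, Atp5g3 made up 58.3% ± 0.381, 56.0% ± 1.19 and 48.2% ± 0.384, and Atp5g2 22.0% ± 0.649, 24.6% ± 1.25 and 32.1% ± 0.0483 in the same order. Atp5g1 stayed at 19.7%, 19.3% and 19.8%. With 3 libraries against 3 the exact two-sided permutation test cannot go below 0.1. It gave 0.1 for each pair of groups for Cox6a2, Cox8b, Atp5g2 and Atp5g3 (0.14 after adjustment over 21 tests), so none of these shifts could pass at 0.05.

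**Figure D5:**
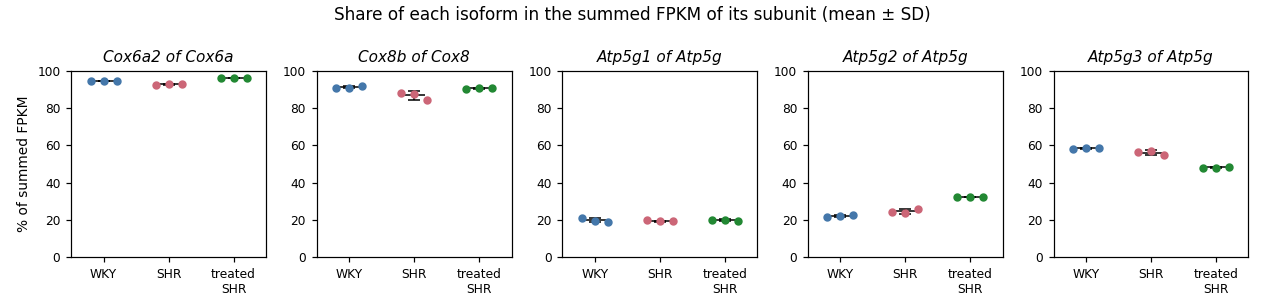
Share of the summed FPKM of its subunit held by each isoform gene, in percent, for each library, with the mean ± SD of each group of 3. Atp5g3 goes from 58.3% in WKY to 48.2% in treated SHR while Atp5g2 goes from 22.0% to 32.1%; Cox6a2 and Cox8b stay above 80% in every library.

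Other mitochondrial genes gave a setting for these changes. Nuclear genes of complex I, the other entry point of electrons, had a median log2 change of -0.20 in SHR and of 0.22 with treatment. In SHR, 8 of 36 tested genes were lower and 2 higher (9.93% and 11.9% of all tested genes). With treatment, 17 were higher and 4 lower (16.1% and 17.4% of all tested genes). Without SHR replicates 2 and 3 the median was -0.16 in SHR and 0.21 with treatment. That fit leaves 1 SHR library and calls fewer of all tested genes, so its counts of calls are left out for these lists. Assembly factors of complexes II to V had 5 of 38 higher and 6 lower in SHR (11.9% and 9.93% of all tested genes). With treatment they had 13 higher and 4 lower (16.1% and 17.4%). Their median log2 change was -0.02 in SHR and 0.11 with treatment, and 0.01 and 0.07 without SHR replicates 2 and 3. Cox20, which helps to build the mitochondrially encoded subunit COX2, was at 50.8, 48.5 and 44.9 FPKM in WKY, 61.8, 45.7 and 51.5 in SHR and 159.8, 167 and 166 in treated SHR, and rose with treatment by 1.63 log2 units (limma adjusted p = 1.91e-05). Cox17, the copper chaperone of complex IV, rose by 0.53 (adjusted p = 0.000233). Ttc19, a factor of complex III, was at 16.9, 16.8 and 17.3 FPKM in WKY, 11.1, 11.4 and 11.2 in SHR and 9.44, 11.4 and 10.9 in treated SHR, and fell in SHR (-0.58, adjusted p = 0.000911).

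Among 14 regulators of mitochondrial biogenesis, 5 rose with treatment (16.1% of all tested genes did) and 0 fell. Their median log2 change with treatment was 0.07, and 0.13 without SHR replicates 2 and 3. In SHR 1 of the 14 fell with all libraries, a share near the 9.93% of all tested genes. The median log2 change of the 14 in SHR was -0.12, and -0.09 without SHR replicates 2 and 3. Tfam, which packs and transcribes mitochondrial DNA, fell in SHR (-0.28, adjusted p = 0.0391). Ppargc1a, a coactivator of respiratory genes, rose with treatment by 0.98 log2 units (adjusted p = 0.000349), and Tfb2m, a mitochondrial transcription factor, by 0.59 (adjusted p = 0.00379). Of 5 other genes that feed electrons to ubiquinone, 1 fell in SHR and 2 rose with treatment (9.93% and 16.1% of all tested genes). Etfdh, which links fatty acid oxidation to the chain, fell in SHR (-0.24, adjusted p = 0.0192) and rose with treatment (0.30, adjusted p = 0.00442). The median log2 change of the 5 was -0.17 in SHR and 0.21 with treatment. Without SHR replicates 2 and 3 it was -0.10 and 0.16. Of 17 other mitochondrial proteins, 5 fell and 0 rose in SHR, while 7 rose and 0 fell with treatment. Their median log2 change was -0.14 in SHR and 0.11 with treatment, and -0.18 and 0.11 without SHR replicates 2 and 3. With all libraries, 9.93% of all tested genes fell and 11.9% rose in SHR, and 16.1% rose and 17.4% fell with treatment. Slc25a4, the exchanger that exports ATP from the mitochondrion, rose with treatment by 0.82 (adjusted p = 9.67e-05).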

How the data were processed

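RNA of rat heart was sequenced in 9 libraries. Total RNA came from the mirVana kit and was made into stranded mRNA libraries (TruSeq), per the labels' protocols. The authors deposited 1 FPKM value per gene and library. The submitters' processing notes name DESeq, HTSeq, Cufflinks, HISAT2 and Trimmomatic and the build Rnor_6.0, but no version or role. Columns were matched to groups through the letters in the series' design text.

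Each library was divided by a median-of-ratios factor over 9194 genes that reached 1 FPKM in every library. The 11717 genes that reached 0.5 in 3 or more libraries were tested, and log2(FPKM + 0.5) was fitted with limma 3.58.1 in R 4.3.3, with 1 mean per group and a variance trend. Fold changes are on this scale, which understates those of low genes. P-values are two-sided, adjusted by Benjamini-Hochberg over all tested genes, and called under 0.05. The procedure was tested on simulated data. The genes and lists were chosen with earlier results of these data known. Values in every library are given, per complex, for the 3 genes with the smallest p in each SHR comparison, for Cycs, Cyc1 and the isoform sets; Uqcrc1, Uqcrfs1, Uqcr10, Uqcrh, Cox5a, Atp5a1, Atp5b and Atp5e, Cox7a2l, Cox7a2l2, Cox7b and Cox7c were added after their values were seen. Alternatives were other normalizations, pseudocounts of 1 and 0.1, filters, robust moderation, a replicate block, removal of the trend with genomic span, and leaving out each library. Promoters came from RefSeq (GRCr8).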

Additional observations from a re-analysis of the deposited data

How the results depend on the processing

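Read counts were not used here, so depth is unknown, no counting interval can be given, and with 3 libraries a group small changes sit near the threshold. For SHR against WKY, the 14 falls became 7 with quantile normalization and 9 with no filter on low values, ranged from 5 to 16 when 1 library was left out, and became 0 without SHR replicates 2 and 3, an alternative chosen after seeing the data. The 1 rise became 2 with cyclic loess normalization, 0 to 1 when 1 library was left out and 0 without SHR replicates 2 and 3. The median log2 change of -0.20 became -0.078 with quantile normalization and -0.069 with cyclic loess, and was -0.21 to -0.12 with 1 library left out. For treated SHR against SHR, the 24 rises became 10 without SHR replicates 2 and 3, and the 5 falls became 9 with quantile normalization and 10 with cyclic loess. The median of 0.24 became 0.15 and 0.084 with these normalizations. The cause of these shifts was not tested. The fits that left libraries out also had fewer libraries. For treated SHR against WKY, the 13 genes higher ranged from 12 to 17 over all alternatives and the 9 lower from 6 (no filter on low values, without WKY replicate 1 or without treated replicate 2) to 13 (cyclic loess), and the median moved by less than the spread of library medians. No gene of the 47 reversed its direction while called under any alternative. With a replicate block, 21 genes fell and 1 rose in SHR, 26 rose and 5 fell with treatment, and 15 were higher and 12 lower in treated SHR than in WKY. Over all tested genes, libraries of the same number did not deviate together (correlations of -0.06 to 0.08), which does not exclude pairing. Over the 47 genes, the median log2 value relative to the WKY mean fell with the number in each group. It was 0.10, -0.02 and -0.07 in WKY, -0.15, -0.16 and -0.23 in SHR and 0.16, 0.07 and 0.03 in treated SHR. Whether the numbers pair libraries is not settled here. Among all tested genes, no rescaling gave 1703 higher and 932 lower in SHR (1398 and 1163 with rescaling) and 1497 and 2427 with treatment (1888 and 2036).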
